A study of Mus musculus with 3 samples.

Results

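Protocadherins are cadherin-like adhesion proteins of the cell surface, and the data hold 62 of their genes, taken as every row of the count table whose gene symbol begins with Pcdh, out of 17285 rows. They comprise 11 alpha, 21 beta and 22 gamma genes of the clustered family and 8 non-clustered genes that lie outside these clusters. RNA was sequenced in 3 samples of B16, a mouse melanoma cell line, that stably carries an empty expression vector. The 3 samples, Mock replicates 1, 2 and 3, form the only group, so no treatment, genotype or dose could be compared and each level was set against a reference of 1 CPM (counts relative to library size). The labels give neither the vector's promoter nor whether the line is 1 clone, their extraction text speaks of organs as well as of the line, and separate cultures are not mentioned. The edgeR and DESeq2 p-values therefore refer to these samples alone, whose spread may be technical, and the Poisson p-values refer to counting error.

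In the clustered family each alpha or gamma gene supplies its own large first exon, which encodes the extracellular and membrane-spanning part, and this exon is spliced to constant exons that all genes of the cluster share. Beta genes have no constant exons. Neurons are known to choose a few first exons per cell through promoter choice that involves CTCF, cohesin and DNA methylation, and the resulting combinations of proteins give cells a surface identity. The non-clustered genes, among them the delta-1 and delta-2 protocadherins, encode proteins that act in cell sorting, axon growth and, for Pcdh15, the hair cell bundle of the inner ear. In the mouse genome (GRCm38, GENCODE M21) the clusters lie in tandem on the plus strand of chromosome 18, the alpha genes from 36930184 to 37187661, the beta genes of the table from 37294812 to 37524479 and the gamma genes from 37661793 to 37841873.

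The libraries held 9328096, 9456527 and 9438905 reads. All 8 melanocyte markers measured were above 1 CPM, from Tyr at 6.56 CPM to Tyrp1 at 12337.4 CPM, beside 74.3% of all genes tested. Of markers of other cells, 0 of 6 leukocyte and 0 of 5 endothelial markers were above 1 CPM by edgeR's quasi-likelihood test, whereas Map2 (26.9 CPM) and Tubb3 (79.9 CPM), of 8 neuronal genes, passed it and Stmn2, Nefl, Snap25, Gad1 and Syt1 were without reads. Col1a2 (27.6 CPM) and Col1a1 (8.29 CPM) of 6 fibroblast markers and Krt8 (5.04 CPM) of 4 epithelial markers were above. The part of cells other than melanoma cells in the protocadherin levels was not tested. Krt8 had 93, 13 and 36 reads and lost its call without replicate 1 (edgeR adjusted p = 0.105). No gene at all was placed below 1 CPM by DESeq2 (0 adjusted and 0 unadjusted, Wald test). In these samples of a whole culture, fewer cells that transcribe a gene and less RNA per cell cannot be told apart.

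Sequences upstream of the start site are shown for Pcdh17 and Pcdh19, the delta-2 genes of the table, both of which had reads in every library. They are RefSeq promoter windows on GRCm38.p6, 5′ to 3′, ended where the annotated gene begins, with each CpG in capitals. Of the 62 genes 5 had an entry, and Pcdh7, Pcdh9 and Pcdh15 are named only. The Pcdh17 window is chr14:84443313-84443562 on the plus strand, and the Pcdh19 window is chrX:133689045-133689243 on the minus strand.
Pcdh17: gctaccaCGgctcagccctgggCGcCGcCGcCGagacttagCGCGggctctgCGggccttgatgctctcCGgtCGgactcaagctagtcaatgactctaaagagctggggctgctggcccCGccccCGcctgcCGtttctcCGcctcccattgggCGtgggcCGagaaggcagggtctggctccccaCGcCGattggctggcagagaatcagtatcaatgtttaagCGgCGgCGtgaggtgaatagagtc
Pcdh19: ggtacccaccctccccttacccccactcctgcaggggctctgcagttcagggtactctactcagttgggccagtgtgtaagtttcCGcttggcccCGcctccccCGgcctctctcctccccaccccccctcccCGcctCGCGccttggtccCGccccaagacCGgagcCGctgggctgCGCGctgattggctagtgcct
The Pcdh17 window holds 21 CpG in 250 bases, a count reached by 16.3% of all promoter windows of that length, whose median is 6. The Pcdh19 window holds 11 in 199 bases, reached by 26.5% of windows of that length, whose median is 4. The word CATGTG, searched on both strands as a motif bound by the melanocyte factor MITF, was in neither window, while 12.3% of all windows of 250 bases and 10.2% of those of 199 hold it.

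Of the 62 protocadherin genes, 50 had at least 1 read after rounding and could be tested. Of these, 20 were above 1 CPM, 12 were below and 18 were unresolved by edgeR's quasi-likelihood F test at an adjusted p of 0.05. DESeq2's Wald test called 13 above and 0 below. Over all 14408 genes tested 74.3% were above 1 CPM and 20.2% below, so 40.0% of the tested protocadherins were above, a lower share than in the table at large. The median protocadherin stood at 0.223 CPM per kilobase of exon, against 2.86 over all genes of the table and 4.92 over the genes tested. Only Pcdhgb8 and Pcdh1 lay above either of these medians. Without each library in turn, 16 of the 20 genes above 1 CPM kept the call, but only 2 of the 12 below did.

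The gamma cluster held the largest share of protocadherin reads and the non-clustered genes the next. Gamma genes summed to 118, 102 and 105 CPM in replicates 1, 2 and 3, which is 108 ± 8.53 CPM (mean ± SD, n = 3) and 44.7 ± 1.53% of all protocadherin reads. Non-clustered genes summed to 88.8, 84.6 and 88.6 CPM, or 36.1 ± 1.51%. Beta genes summed to 30.4, 31.7 and 26.0 CPM, or 12.1 ± 1.19%, and alpha genes to 18.2, 17.9 and 14.95 CPM, or 7.03 ± 0.613%. These 4 groups did not overlap in any library, and their order was the same in each. Within a group the libraries differed little: the highest sum was 1.05 times the lowest for non-clustered, 1.16 times for gamma, 1.21 times for alpha and 1.22 times for beta genes. The exact 95% binomial (Clopper-Pearson) interval of the gamma sum was 111 to 125 CPM in replicate 1 and 95.3 to 108 CPM in replicate 2, which do not overlap. The intervals of the other 3 groups overlapped between all libraries. These intervals hold counting error alone, and without molecular identifiers reads are not independent molecules.

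**Figure D1:**
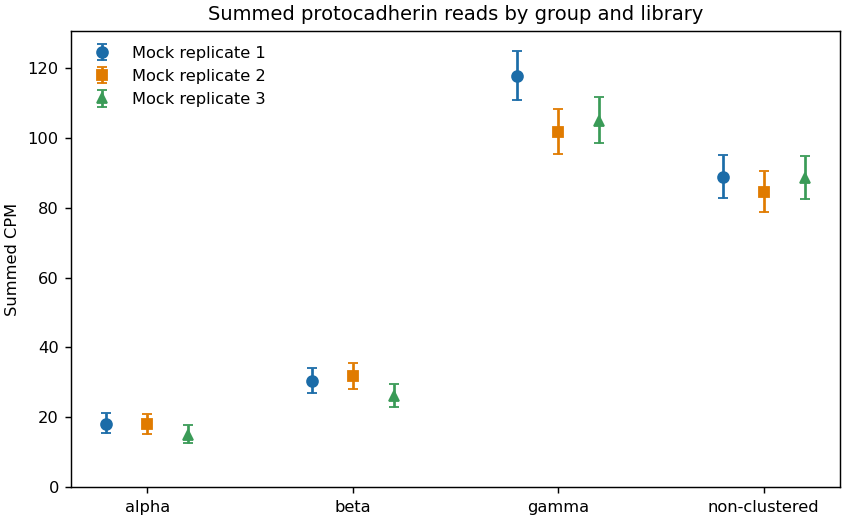
Summed CPM (y axis) of the alpha, beta, gamma and non-clustered protocadherins (x axis), 1 point per library with its exact 95% binomial interval. Gamma sums lie between 102 and 118 CPM, non-clustered sums between 84.6 and 88.8, beta sums between 26.0 and 31.7 and alpha sums between 14.95 and 18.2.

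Among the non-clustered genes, 4 of 8 were above 1 CPM, or 66.7% of those tested, beside 74.3% of all genes tested. Below 1 CPM were 33.3% of those tested, beside 20.2% of all genes. Pcdh1, a delta-1 protocadherin of epithelial and other cells (chromosome 18, 38185914 to 38212053, minus strand), had 467, 418 and 413 reads, or 46.0 ± 3.38 CPM. Pcdh7, a delta-1 protocadherin whose cytoplasmic tail binds protein phosphatase 1 (chromosome 5, 57717967 to 58133230, plus strand), had 243, 252 and 284 reads, or 27.6 ± 2.22 CPM. These genes held 52.7% and 31.6% of the reads of the non-clustered group. Pcdh19, a delta-2 protocadherin and X-linked epilepsy gene (chromosome X, 133582860 to 133688987, minus strand), had 65, 81 and 81 reads, or 8.04 ± 0.949 CPM. Pcdh17, a delta-2 protocadherin that recruits actin regulators at cell contacts (chromosome 14, 84443563 to 84539002, plus strand), had 49, 46 and 56 reads, or 5.35 ± 0.541 CPM. The 4 genes formed steps whose libraries did not overlap in CPM: each Pcdh1 value was above each Pcdh7 value, and so on down to Pcdh17. Their adjusted p values against 1 CPM were 2.18e-12 for Pcdh1, 1.80e-11 for Pcdh7, 1.50e-08 for Pcdh19 and 1.63e-07 for Pcdh17 (edgeR).

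The remaining non-clustered genes were at or near 0. Pcdh12, known from endothelial cells and placenta, had 6, 0 and 1 reads and was below 1 CPM (edgeR adjusted p = 0.0179), a call lost without replicate 2 or 3 (0.114 and 0.177). Over the alternatives tried its adjusted p ran from 5.20e-06 to 0.51. Pcdh9, a delta-1 gene of the brain, had 1, 1 and 0 reads and was also below (edgeR adjusted p = 7.24e-04, over the alternatives 4.88e-10 to 0.218). Pcdh15 and the delta-1 gene Pcdh11x had no reads, which allows up to 0.106 CPM each (3 reads over the 3 libraries). Of the delta-1 genes measured, then, Pcdh1 and Pcdh7 were above 1 CPM, Pcdh9 below and Pcdh11x without reads, while both delta-2 genes measured were above. The delta-2 genes Pcdh8, Pcdh10 and Pcdh18 and the non-clustered gene Pcdh20 are not among the genes measured. Their levels are thus not known here, and the delta-1 and delta-2 groups cannot be compared as wholes.

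**Figure D2:**
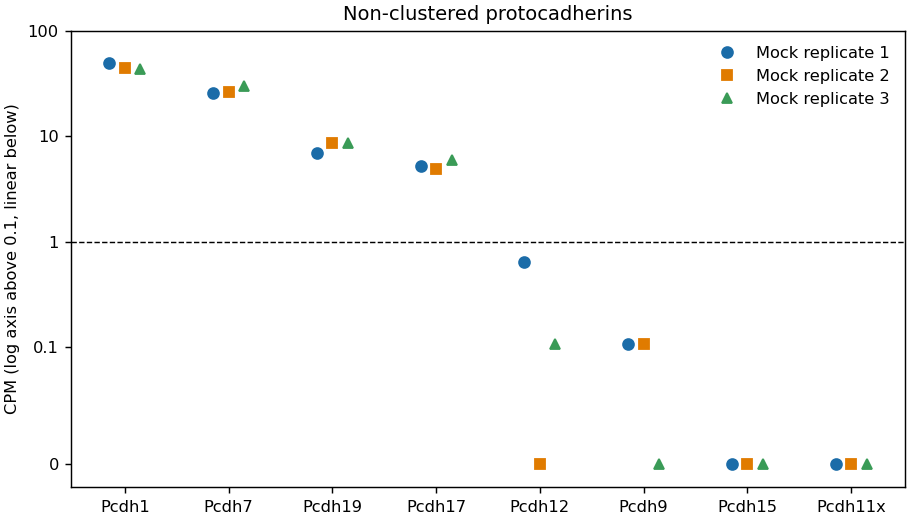
CPM (y axis, logarithmic above 0.1 and linear below) of the 8 non-clustered protocadherins (x axis), 1 point per library, with a dashed line at 1 CPM. Pcdh1, Pcdh7, Pcdh19 and Pcdh17 lie above the line in every library and the other 4 genes below it.

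Among the 11 alpha genes measured, which do not include Pcdha4, Pcdha6 or Pcdha7, most reads were assigned to a single gene. Of those tested 20% were above 1 CPM and 40% below, beside 74.3% and 20.2% of all genes tested. Whether reads assigned to it came from alpha genes not measured was not tested. Pcdha10 (chromosome 18, 37005203 to 37187657, plus strand) was assigned 135, 160 and 116 reads, or 14.5 ± 2.36 CPM, and was the only alpha gene above 1 CPM (edgeR adjusted p = 2.14e-09). It held 85.5% of the alpha reads. Pcdha9, its neighbour upstream in the genome, was assigned 19.3, 8.81 and 14.2 reads and was unresolved (adjusted p = 0.0724). It was called above 1 CPM without replicate 2 (edgeR adjusted p = 0.0402) and by the exact Poisson test of summed reads (0.0147), with 9.07e-04 to 0.777 over the alternatives. Pcdha8 was assigned 8.16, 0 and 7.46 reads (unresolved), Pcdha5 4.17, 0 and 3.80 and Pcdhac2, whose protein is known to space serotonergic axons, 3.70, 0 and 0. The last 2 of these were below 1 CPM, with edgeR adjusted p values of 0.0148 and 0.00717, and lost the call without 1 library or another (edgeR adjusted p 0.0849 to 0.127). Over the alternatives the adjusted p ran from 1.99e-05 to 0.552 for Pcdha5 and from 3.38e-08 to 0.354 for Pcdhac2. Pcdha1, Pcdha2, Pcdha3, Pcdha11, Pcdha12 and Pcdhac1 were listed at 0 in all libraries. Every alpha gene with reads had fractional values, yet the alpha sums were whole numbers in all 3 libraries (170, 169 and 141, within 0.005). The gamma sums were whole by the same tolerance in 1 library (1103, 959.46 and 990.01 reads in replicates 1, 2 and 3).

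The beta cluster was low and broad. Of its genes 23.8% were above 1 CPM and 33.3% below, beside 74.3% and 20.2% of all genes tested. All 21 beta genes had reads, 18 of them in every library, and their counts were whole numbers throughout. Above 1 CPM were 5 genes: Pcdhb16 with 52, 61 and 44 reads (5.56 ± 0.899 CPM), Pcdhb17 with 49, 53 and 37 (4.93 ± 0.888 CPM), Pcdhb11 with 44, 33 and 23 (3.55 ± 1.13 CPM), Pcdhb18 with 25, 29 and 18 (2.55 ± 0.591 CPM) and Pcdhb22 with 20, 15 and 15 (1.77 ± 0.315 CPM). Pcdhb16, Pcdhb17 and Pcdhb18 are direct neighbours in the genome (chromosome 18, 37477814 to 37494505). In CPM the libraries of Pcdhb16, Pcdhb17 and Pcdhb11 overlapped with one another, whereas those of Pcdhb18 lay below all libraries of Pcdhb16 and Pcdhb17. The edgeR adjusted p values of the 5 ran from 2.71e-07 for Pcdhb16 to 0.00621 for Pcdhb22. DESeq2's Wald test kept Pcdhb16 and Pcdhb17 alone of these 5, at adjusted p values of 2.12e-04 and 0.00177, and gave 0.0622 for Pcdhb11.

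Another 7 beta genes were below 1 CPM: Pcdhb2, Pcdhb6, Pcdhb8, Pcdhb10, Pcdhb13, Pcdhb14 and Pcdhb21. The scarcest, Pcdhb13, had 2, 1 and 0 reads (0.107 ± 0.107 CPM, edgeR adjusted p = 0.00147) and was the only one of the 7 that kept its call without each library in turn. The other 9 (Pcdhb3, Pcdhb4, Pcdhb5, Pcdhb7, Pcdhb9, Pcdhb12, Pcdhb15, Pcdhb19 and Pcdhb20) were unresolved, between 0.568 and 1.49 CPM, and Pcdhb19 had 10 reads in each library. The leading gene of the beta cluster held 18.9% of its reads, against 85.5% for the leading alpha gene and 30.6% for the leading gamma gene. Alpha and gamma counts are fractional estimates over genes that share exons, so these shares are not the same measure as the beta share. Beta genes called above 1 CPM dropped to 3 when tested against 2 CPM and rose to 10 against 0.5 CPM.

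The gamma cluster held 10 genes above 1 CPM. That is 55.6% of the gamma genes tested, beside 74.3% of all genes tested, and 5.56% were below, beside 20.2%. The most abundant was Pcdhgb8 (chromosome 18, 37761801 to 37841870, plus strand), annotated as a polymorphic pseudogene, with 354, 283 and 295 assigned reads, or 33.1 ± 4.19 CPM. It held 30.6% of the gamma reads. Pcdhgb7 was assigned 141, 131 and 86.6 reads (12.7 ± 3.11 CPM), Pcdhga6 131, 97.0 and 121 (12.4 ± 1.91 CPM) and Pcdhgb2 118, 113 and 58.8 (10.3 ± 3.51 CPM). Pcdhga1 reached 7.61 ± 0.681 CPM, Pcdhga12 6.68 ± 3.48 CPM and Pcdhga3 3.35 ± 0.472 CPM. These 7 genes were the gamma genes with reads in all 3 libraries, and they held 79.6% of the gamma reads. By DESeq2's Wald test 6 gamma genes were above, the same 7 without Pcdhga3. Their edgeR adjusted p values ran from 4.55e-11 for Pcdhgb8 to 3.41e-05 for Pcdhga12, and Pcdhga12 lost the call without replicate 1 (edgeR adjusted p = 0.051, with 2.81e-88 to 0.051 over the alternatives).

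The other 3 gamma genes above 1 CPM were each at 0 in 1 library. Pcdhga4 was assigned 62.4, 79.5 and 0 reads, Pcdhgb1 0, 57.5 and 67.2, and Pcdhgb6 36.2, 0 and 55.0. Each lost the call without either of the libraries in which it had reads (edgeR adjusted p between 0.219 and 0.446). Over the alternatives the adjusted p ran from 3.63e-52 to 0.255 for Pcdhga4, from 1.16e-40 to 0.288 for Pcdhgb1 and from 8.42e-21 to 0.446 for Pcdhgb6. Below 1 CPM was Pcdhgb4 with 0.88 assigned reads in replicate 2 alone (edgeR adjusted p = 6.10e-04), and without that library it had no count to test. Pcdhga7, Pcdhga10, Pcdhgb5 and Pcdhgc4, whose protein is needed for survival of neurons, were listed at 0 in all libraries. The 7 unresolved genes were Pcdhga2, Pcdhga5, Pcdhga8, Pcdhga9, Pcdhga11, Pcdhgc3 and Pcdhgc5, all listed at 0 in at least 1 library. Pcdhga5 was assigned 0, 39.7 and 19.1 reads, Pcdhgc3 17.7, 0 and 27.6, and Pcdhgc5 0, 16.0 and 26.3. Pcdhga9 had its 12.8 assigned reads in replicate 1 alone. By type, the 7 B genes summed to 69.3, 62.2 and 59.7 CPM, the 12 A genes to 41.4 ± 4.66 CPM and the 3 C genes to 3.10 ± 2.27 CPM. The C genes had 17.7, 16.0 and 53.9 reads, so replicate 3 carried 61.5% of them.

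**Figure D3:**
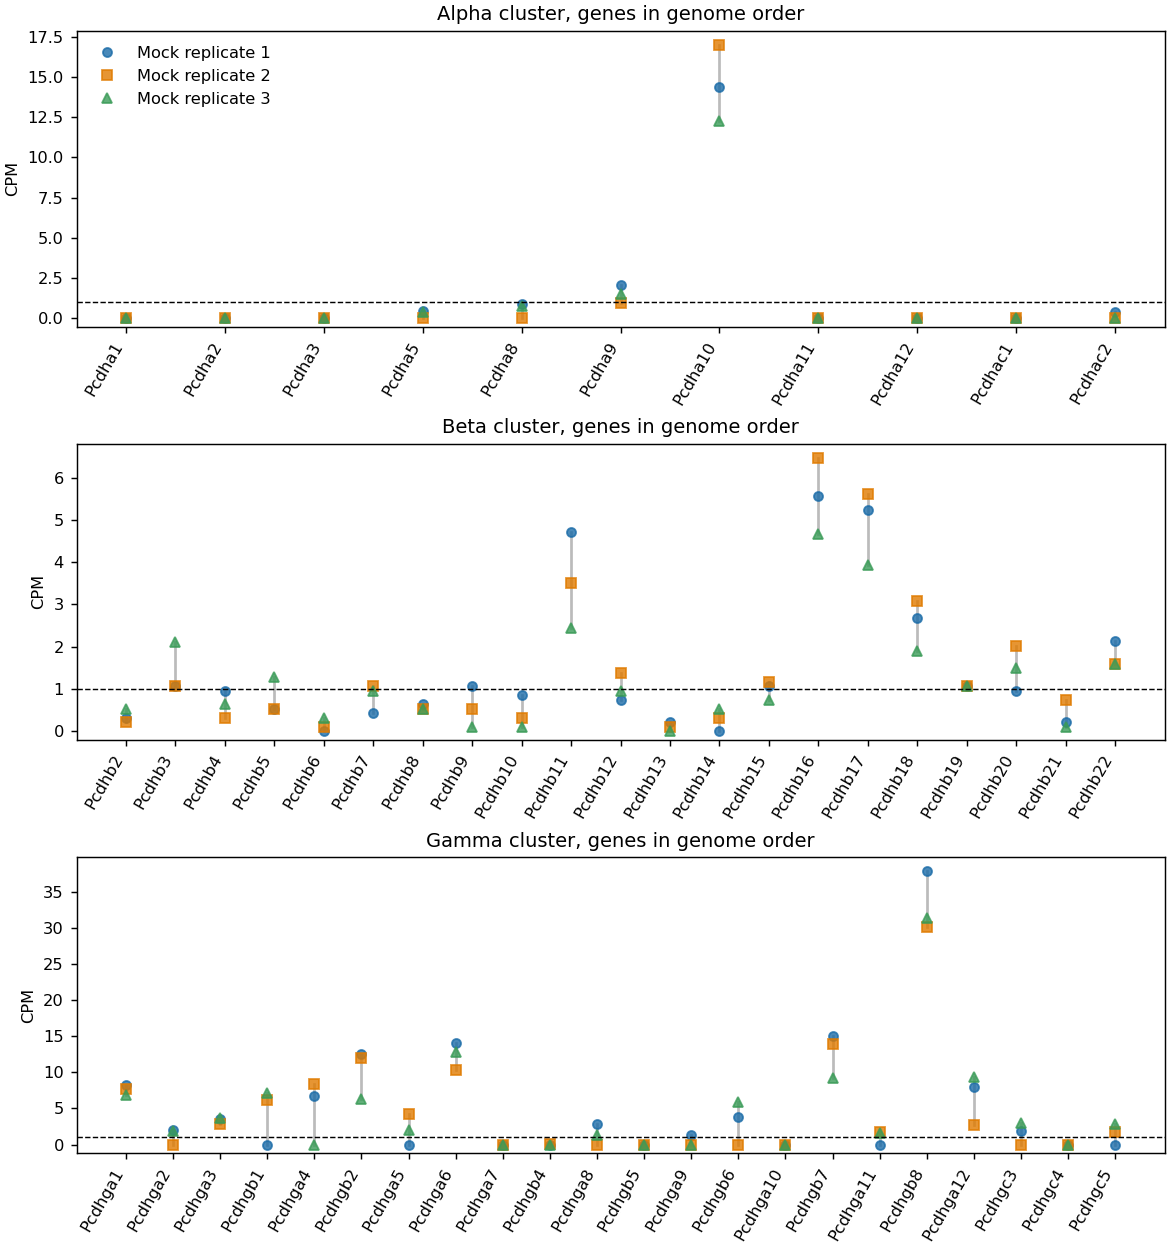
CPM (y axis, a separate linear scale in each panel) of the alpha, beta and gamma genes in their order along chromosome 18 (x axis), 1 point per library, a grey line from the lowest to the highest library and a dashed line at 1 CPM. Pcdha10 stands above the other alpha genes measured, Pcdhb16 and Pcdhb17 lead the beta cluster, and many gamma genes run from 0 in 1 library to several CPM in another.

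The reads of 12 gamma genes were split unevenly over the 3 libraries. In the Poisson deviance test against library size, 12 of the 30 protocadherins with a mean of at least 10 reads differed between libraries at an adjusted p of 0.05, against 3.31% of all 11000 genes tested 6.06% of those with fractional counts and 2.78% of those with whole counts. All 12 were gamma genes, of 16 gamma genes tested, and the other 4 gamma genes (Pcdhga1, Pcdhga3, Pcdhga6 and Pcdhgb8) did not pass the threshold. Of the 12 beta and non-clustered genes tested, 0 passed it in this Poisson test. Whether the groups themselves differ in this was not tested. Their lowest adjusted p was 0.271 (Pcdhb11), and 1 of the 12 had an unadjusted p under 0.05. Of the 2 alpha genes tested 0 differed, and 1 had an unadjusted p under 0.05 (Pcdha10, adjusted p = 0.259). The test compares libraries, not conditions, and it takes each assigned read as counted, so it does not hold the error of dividing reads among genes.

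Of the 12, 9 were gamma genes at 0 in 1 library, and each had at least 10 assigned reads in another. With the required mean of at least 10 reads, a gene at 0 in 1 library must have that many in another. Such a split passes this test by construction, so these 9 calls add nothing beyond the zeros. Replicate 1 had 0 reads for Pcdhgb1, Pcdhga5, Pcdhga11 and Pcdhgc5, replicate 2 for Pcdhga2, Pcdhga8, Pcdhgb6 and Pcdhgc3, and replicate 3 for Pcdhga4. Each library thus held at least 1 of these zeros, replicate 3 only that of Pcdhga4. Each gene was at 0 in 1 library alone, so zeros of different libraries fell on different genes by construction. The largest deviance was that of Pcdhga4 (118, adjusted p = 3.53e-23), followed by Pcdhgb1 (101, 8.84e-20) and Pcdhgb6 (77.9, 8.84e-15). The other 3 of the 12 had reads in all libraries: Pcdhga12 with 73.9, 26.0 and 88.6 reads (5.48e-07), Pcdhgb2 (4.74e-04) and Pcdhgb7 (0.024). With any 1 library left out 5 protocadherins differed, each of them among these 12. In each library 13, 13 and 15 gamma genes had reads, and 7 had them in all 3. The gamma sum itself differed by 1.16 times between its highest and lowest library.

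**Figure D4:**
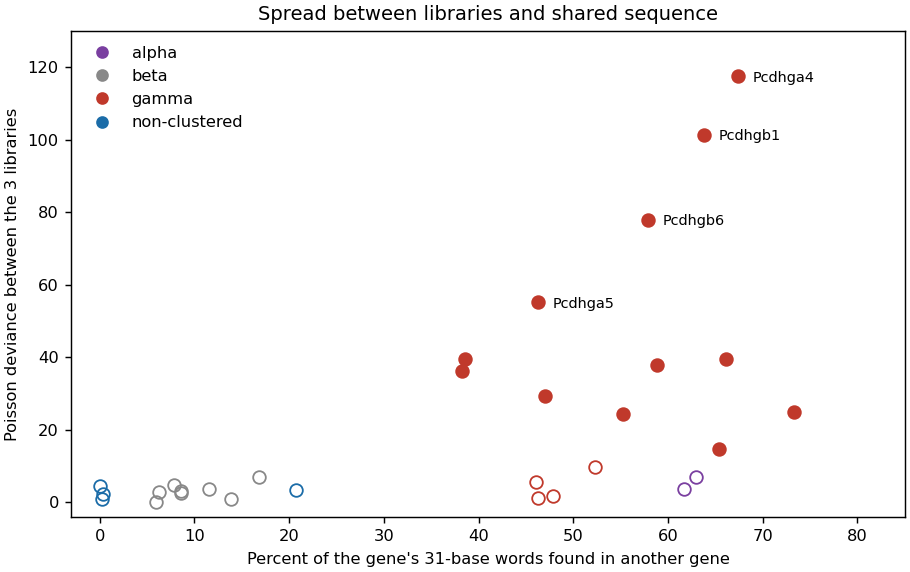
Poisson deviance between the 3 libraries (y axis) against the percentage of the gene's 31-base words that also occur in another annotated gene (x axis) for the 30 protocadherins with a mean of at least 10 reads, filled where the adjusted p is under 0.05. The 12 filled points are gamma genes with 38.3% to 73.3% of their words shared. Within that range Pcdhga1, Pcdhga3, Pcdhga6, Pcdhgb8, Pcdha9 and Pcdha10 are not filled, at 46.1% to 63.0%. Beta and non-clustered genes lie at or below 20.7% with no filled point.

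The groups differed in how much sequence their genes share. Annotated alpha genes share a median of 2860 of 5353 exon bases with other protocadherin genes, and gamma genes 2119 of 4819. In words of 31 bases on either strand of all GENCODE M21 transcripts, a median of 63.0% of an alpha gene and 49.0% of a gamma gene also occurs in another gene, against 12.1% of a beta gene and 0.053% of a non-clustered gene. Pcdhga10 was the extreme, with 99.4% of its words found in another gene and 45.4% in another protocadherin, and it was listed at 0. The other gamma genes listed at 0 had lower shares found in another gene: Pcdhga7 50.1%, Pcdhgb5 40.0% and Pcdhgc4 37.4%. All 18 gamma and all 5 alpha genes with reads had fractional counts, while 0 of 21 beta and 0 of 8 non-clustered genes did. The part of this sharing in the spread between libraries was not tested.

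Per kilobase of annotated exon, Pcdhgb8 led the family at 7.16 ± 0.907 CPM per kilobase, followed by Pcdh1 at 5.23 ± 0.384. On this length both stood apart from their next lower neighbour in all libraries. By coding length the order of the leading pair turned, with Pcdh1 at 12.1 and Pcdhgb8 at 11.8, and by exon length not shared with another protocadherin Pcdha10 (5.82) came before Pcdh1 (5.23). Pcdha10 (2.71 ± 0.441), Pcdhgb7 (2.70 ± 0.66), Pcdhga6 (2.62 ± 0.405), Pcdh7 (2.60 ± 0.209) and Pcdhgb2 (2.10 ± 0.719) followed, and the libraries of these 5 genes overlapped. In the whole order of 50 genes with reads, 46 of 49 pairs of neighbours overlapped, so most ranks do not go beyond the spread. The median level per kilobase was 0.37 for gamma, 0.226 for non-clustered, 0.22 for beta and 0 for alpha genes. Dividing all assigned reads by only the exon bases that no other protocadherin shares gave a gamma median of 0.687. The reads of shared exons stay in, so this length raises alpha and gamma genes with reads by construction, Pcdha10 above included. Coding length gave medians of 0.658 for gamma, 0.806 for non-clustered and 0.328 for beta genes, so that non-clustered genes then stood above gamma genes.

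Other members of the cadherin superfamily showed a wider range. Of 35 such genes measured, 10 were above 1 CPM, 8 below, 4 unresolved and 13 without reads. Cdh2, the N-cadherin of neural crest derivatives, had 392.3 ± 4.86 CPM, Fat1, a giant cadherin, 311 ± 10.3 CPM, Clstn1, a calsyntenin, 141 ± 6.41 CPM and Celsr2, a planar polarity cadherin, 55.7 ± 3.88 CPM. Without reads were Cdh3, Cdh4, Cdh5, Cdh7, Cdh10, Cdh17, Cdh18, Cdh22, Cdh23, Fat2, Fat3, Fat4 and Dsg1b. Of the tested genes 45.5% were above 1 CPM, near the 40.0% of the protocadherins and under the 74.3% of all genes tested. Below 1 CPM were 36.4% of them, beside 24% of the protocadherins and 20.2% of all genes tested. On the per-kilobase scale Cdh2 alone (48.7, 49.2 and 48.0 in the 3 libraries) exceeded the sum over all 62 protocadherins (44.0, 40.2 and 38.9) in each library. With exon length not shared between protocadherins the direction turned, as their sum was then 68.7, 63.3 and 59.0. That sum keeps all assigned reads, also those of shared exons, so the shorter length raises it by construction. The median superfamily gene stood at 0.0117 CPM per kilobase, against 0.223 for the protocadherins.

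**Figure D5:**
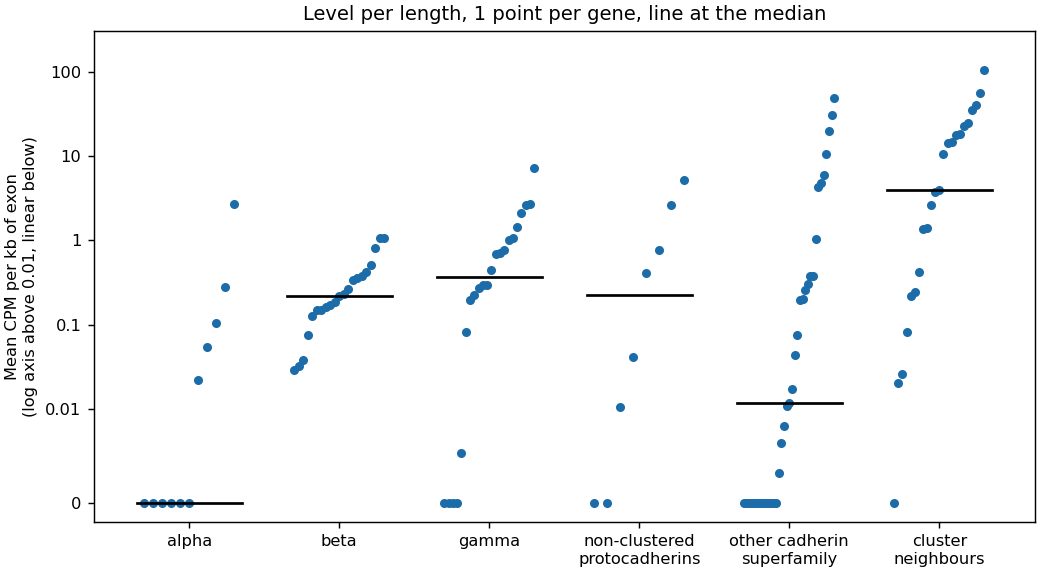
Mean CPM per kilobase of exon (y axis, logarithmic above 0.01 and linear below), 1 point per gene, for the 4 protocadherin groups, other cadherin superfamily genes and the neighbours of the clusters (x axis), with a line at each median. The medians are 0, 0.22, 0.37 and 0.226 for alpha, beta, gamma and non-clustered protocadherins, 0.0117 for the superfamily and 3.92 for the neighbours.

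Genes around and between the clusters were transcribed at higher levels. Of 23 neighbours measured (non-protocadherin genes between the clusters or within 300 kb of their ends), 17 were above 1 CPM, 3 below, 2 unresolved and Gm37013 without reads. That is 77.3% of the tested neighbours, close to the 74.3% of all genes, and the median level per kilobase was 3.92. Slc35a4 stood at 180 ± 10.8 CPM, the splicing factor gene Ik at 127 ± 0.95, the histidyl-tRNA synthetase gene Hars at 97.6 ± 1.58 and Ankhd1 at 96.4 ± 3.21 CPM. Between the beta and gamma clusters, Taf7, which encodes a subunit of general transcription factor TFIID, had 47, 36 and 49 reads (4.68 ± 0.752 CPM), while its neighbour Slc25a2 had 1, 0 and 0 and was below 1 CPM.

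Genes for the machinery known to choose protocadherin promoters were all transcribed: 19 of 19 were above 1 CPM, beside 74.3% of all genes tested. They were led by the corepressor gene Trim28 at 284 ± 11.6 CPM, the cohesin gene Rad21 at 268.5 ± 1.73, the maintenance DNA methyltransferase gene Dnmt1 at 235 ± 1.86 and the cohesin gene Stag2 at 197 ± 4.66 CPM. Ctcf itself stood at 124 ± 1.68 CPM. The lowest was Dnmt3b, the methyltransferase known to methylate protocadherin promoters, at 11.7 ± 0.897 CPM. Of 20 genes that process protocadherins or act downstream of them, 19 were above 1 CPM, again beside 74.3% of all genes tested. The highest were Ctnnb1 (821 ± 1.59 CPM), the phosphatase gene Ppp1ca (440 ± 11.6 CPM), the WAVE complex gene Nckap1 (409 ± 8.10 CPM) and the gamma-secretase gene Aph1a (171 ± 4.17 CPM). Only Ret, a receptor that binds clustered protocadherins in neurons, was below, with 1, 1 and 0 reads.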

How the data were processed

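RNA of 3 Mock samples was extracted with a kit and the libraries were made by a sequencing company, per the labels' protocols. Estimated counts per gene symbol, 1 column per sample, are what the authors deposited. Per the submitters' processing notes the genome was GRCm38.p6. Aligner, counter, annotation, filters and strand setting: not given in the sources used here, so reads of overlapping, antisense or near-identical genes may fall to either partner. Of the table's genes, 2270 (13.1%) had values off a whole number (tolerance 0.005).

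Counts were rounded for tests, which left 14408 genes with at least 1 count. Totals were 9328096, 9456527 and 9438905, scaled by TMM factors of 1.0034, 0.9977 and 0.9989, and 1 CPM corresponds to 28.2 reads over the libraries. For levels against 1 CPM, edgeR 4.0.16 (R 4.3.3) fitted an intercept alone; its quasi-likelihood F test, bounded by a Poisson likelihood ratio test for genes less variable than Poisson, was two-sided and Benjamini-Hochberg adjusted over all genes tested. For the spread between libraries, the Poisson deviance of genes averaging 10 counts or more was referred to a chi-square distribution with 2 degrees of freedom. Exon lengths, positions and shared words came from GENCODE M21, where a gene named Pcdha11 was taken as Pcdha10 through its RefSeq gene. Alternatives were other scalings, DESeq2 1.42.0, an exact Poisson test, other filters and reference levels, rounding down, other lengths and leaving out each library. Both tests were tested on simulated data. Of genes set at 2, 0.5 and 1 CPM, the level test called 50 of 50, 37 of 50 and 11 of 200. The test of spread called 187 of 200 genes doubled in 1 library and 12 of 10800 unchanged genes. Its simulated counts were Poisson draws, so reads divided among genes were not simulated.

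All protocadherin genes are named, and by rule in each other list the 4 most abundant genes and those with no count, except that marker lists are given mostly by counts. Some further genes were named that were chosen after their values were seen (Ctcf, Dnmt3b, Taf7, Slc25a2, Ret and single markers). Members, lists and rules were chosen with earlier results of these data known. Intervals used scipy 1.17.1 and plots matplotlib 3.10.9.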

Additional observations from a re-analysis of the deposited data

How the results depend on the processing

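No paired analysis was possible because the 3 samples form a single group. Scaling by library totals or by DESeq2's size factors changed no call of any protocadherin. DESeq2's Wald test called 13 protocadherins above 1 CPM (beta 2, gamma 6) and 0 below in every list, also at an unadjusted p under 0.05. The exact Poisson test called 27 protocadherins above (alpha 2, beta 7, gamma 14) and 15 below (gamma 2). With at least 10 counts required, 4 protocadherins were below (beta 4, alpha, gamma and non-clustered 0), 1 other cadherin superfamily gene, and 0 in the neighbour, effector and marker lists, because genes with fewer reads left the test. Against 0.5 CPM, 4 protocadherins were below (alpha 0, beta 2, non-clustered 1) and 29 above (alpha 2, beta 10). At that level 1 leukocyte and 0 fibroblast markers were below and 2 epithelial markers above. Against 2 CPM, 21 protocadherins were below (beta 14, gamma 2), 3 beta genes above, 5 neighbours and 1 epithelial marker below. Pcdhb8 lay at a log2 of 0.18 above 0.5 CPM and Pcdhb22 at -0.17 against 2 CPM, on the other side of these references. Rounded down, 0 gamma genes were below, since Pcdhgb4 lost its only count.

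With each replicate left out, the genes below 1 CPM numbered 5 to 8 protocadherins (alpha 0 to 1, beta 3 to 5, gamma 0 to 1, non-clustered 1 to 2), 4 to 7 other cadherin superfamily genes, 1 to 2 neighbours, 0 to 2 leukocyte and 0 to 1 fibroblast markers. Above were 1 to 2 alpha genes and 0 to 1 epithelial markers. Protocadherins differing between libraries, all of them gamma genes, numbered 5 to 5 with each replicate left out (12 with all) and 6 with a mean of 30 counts. With each replicate left out the gamma median per kilobase was 0.359 to 0.481; it was 0.658 by coding length and 0.687 by unshared exon length; coding length gave 0.328 for beta and 0.806 for non-clustered genes. Where no construction of the alternative accounts for a change, the cause was not tested. At this depth 1 CPM corresponds to 28.2 reads, and 18 protocadherins were unresolved. The shares of depth and of spread between libraries in this were not tested.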
